A study of Homo sapiens with 4 samples.

Results

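Among the Epi-like cells of 120 h blastoids, a group was defined by the sum of its FOS, EGR1 and DUSP5 transcripts. Only 14.5% of its cells held all 3 genes. A cell entered this group when it held 3 or more UMIs (unique molecular identifiers, 1 per captured transcript) of the 3 genes together. There were 1340 such cells among 10445 Epi-like blastoid cells, and 13017 cells passed the filters in the whole series. They were set against the 4524 Epi-like cells with 0 UMIs of the 3 genes, and 4581 cells with 1 or 2 UMIs stood between the groups. Epi-like means that UMIs of the trophectoderm (TE) markers KRT8, KRT18, GATA3 and CLDN4 were not above those of the epiblast (Epi) markers POU5F1, DPPA5, DPPA4, L1TD1 and TDGF1. The groups are called high cells and zero cells here. Because the 3 genes chose the cells, their levels in high and zero cells are a description and were not tested.

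Blastoids are blastocyst-like structures grown from naive embryonic stem cells, here of the human line H9, and were profiled with 10x Genomics 3′ single-cell RNA sequencing. Cells aggregated for 16 h in microwells in medium with the kinase inhibitor Y27632. They then spent 48 h in PALLY medium, which holds the MEK inhibitor PD0325901, the TGF-beta receptor inhibitor A83-01, LIF, lysophosphatidic acid (LPA) and Y27632. The last 56 h were in LY medium with LPA and Y27632 alone, so that blastoids at 120 h had left the MEK inhibitor behind while aggregates sampled at 40 h had not. Cultures received 0 or 4 mM dimethyl α-ketoglutarate (dm-αKG), a cell-permeable form of α-ketoglutarate, for the initial 40 h. Run 1 captured blastoids and aggregates at both doses, and run 2 blastoids at both doses, each culture marked by 1 antibody hashtag. An arm is 1 hashtagged culture in 1 run. Blastoids with a single cavity were picked, dissociated with TrypLE and Accutase for about 10 to 20 min and sorted before capture, and the 2 capture runs are the only replication of each dose.

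FOS and EGR1 are immediate early genes. Their transcription starts within minutes when the ERK kinase cascade, serum response factor or cAMP signalling is switched on, needs no new protein, and ends soon after as the mRNA decays. DUSP5 codes for a nuclear phosphatase that is induced by ERK and in turn dephosphorylates ERK, as other DUSP and Sprouty proteins dampen the same pathway at other levels. Naive human pluripotent cells are kept under MEK inhibition, and cell dissociation itself is known to induce immediate early genes in many tissues.

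The 4 blastoid arms held 360, 1006, 3978 and 5101 Epi-like cells in the order run 1 at 0 mM, run 1 at 4 mM, run 2 at 0 mM and run 2 at 4 mM, and all values by arm follow that order. Their median depths were 28953, 30049, 15657 and 15501 UMIs per cell, so that the 3 UMI threshold was reached more easily in run 1. The runs shared 28 barcodes in all, none of them a high cell. Of the barcodes with 1 clear hashtag, 48.0, 77.7, 76.7 and 85.4% passed the filters in the blastoid arms. The share that passed was thus higher at 4 mM in both runs, and its part in the results was not tested.

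DUSP5 was found in more of the high cells than FOS. At least 1 DUSP5 UMI was present in 87.2% of them, FOS in 72.5% and EGR1 in 28.9%, and 14.5% carried all 3 genes. DUSP5 was also the commonest of the 3 among all Epi-like cells, at 52.2, 61.9, 36.4 and 39.4%, where FOS was found in 41.1, 46.4, 25.9 and 19.6%. These shares were used by the rule that chose the cells. High cells with DUSP5 alone made up 9.18, 13.8, 16.3 and 32.0% of the arms' high cells, and those with FOS alone 7.14, 5.67, 8.39 and 2.86%. The group is therefore named by its 3 genes and not by FOS. The median high cell held 4 UMIs of the 3 genes in run 1 and 3 in run 2. The cells just inside the threshold, with 3 UMIs, numbered 663 and had a median depth of 22054 UMIs. Those just outside, with 2 UMIs, numbered 1498 at a median of 18606 UMIs. At the other end, 29 cells held 10 or more UMIs of the 3 genes, 28 of them in run 1, with a highest value of 30.

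FOS lies at chr14:75278826-75282230, EGR1 at chr5:138465479-138469303 and DUSP5 at chr10:110497907-110511533 of GRCh38, all on the plus strand. The sequences around the start sites of FOS, EGR1 and FOSB are shown because these are inducible transcription factor genes of the comparison and each holds at least 1 of the motifs searched, while the window of JUNB held 0 of both. Each runs from 250 bases before to 50 bases after the RefSeq start on GRCh38.p14, at chr14:75278578-75278877, chr5:138465229-138465528 and chr19:45467746-45468045, all on the plus strand. Capitals mark matches to the CArG box, the letters bound by serum response factor, and to TGACGT, the core of the cAMP response element, on either strand.
FOS: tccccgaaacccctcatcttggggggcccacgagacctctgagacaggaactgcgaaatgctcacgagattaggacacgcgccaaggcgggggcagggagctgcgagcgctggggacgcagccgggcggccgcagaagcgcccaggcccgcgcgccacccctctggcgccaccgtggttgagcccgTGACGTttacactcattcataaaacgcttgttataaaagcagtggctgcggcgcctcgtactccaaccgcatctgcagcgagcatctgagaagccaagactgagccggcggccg
EGR1: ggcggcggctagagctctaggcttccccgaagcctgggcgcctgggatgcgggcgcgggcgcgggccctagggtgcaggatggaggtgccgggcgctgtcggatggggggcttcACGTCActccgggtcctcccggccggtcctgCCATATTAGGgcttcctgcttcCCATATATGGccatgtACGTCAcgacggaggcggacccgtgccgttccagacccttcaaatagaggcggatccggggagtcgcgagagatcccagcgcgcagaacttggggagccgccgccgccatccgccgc
FOSB: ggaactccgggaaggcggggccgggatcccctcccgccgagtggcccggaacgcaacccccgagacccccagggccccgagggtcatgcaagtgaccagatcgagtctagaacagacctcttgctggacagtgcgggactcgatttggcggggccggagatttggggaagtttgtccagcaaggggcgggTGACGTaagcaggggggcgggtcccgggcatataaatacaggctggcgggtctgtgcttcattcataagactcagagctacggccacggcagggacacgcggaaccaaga
EGR1 held 2 CArG boxes and 2 TGACGT matches in this window, and FOS and FOSB held 1 TGACGT match each and no CArG box. A CArG box was found in 1.29% of the 27305 promoter windows and TGACGT in 8.32%, and in 1.04 and 12% of the 9620 windows that belong to tested genes. Among genes higher in the high cells, 41 of 68 had a window, 1 of which held a CArG box and 8 TGACGT (19.5%). Among the other motifs searched, the ETS core CCGGAA was in 8 of these 41 windows (19.5%) against 31.2% for tested genes, the EGR motif GCGNGGGCG in 9 (22%) against 15.7%, and the AP-1 motif TGANTCA in 1 (2.44%) against 4.18%. A match says only that the letters are present. Sites more than 250 bases before the start were not searched, so 0 matches in a window does not mean that the promoter lacks the motif. No window is shown for DUSP5 or EGR3.

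In run 1, the share of high cells differed far more between culture stages than between doses. High cells were 27.2% (95% Clopper-Pearson interval 22.7 to 32.1%), 40.4% (37.3 to 43.5%), 10.5% (9.55 to 11.5%) and 8.21% (7.47 to 9.0%) of Epi-like cells in the 4 blastoid arms. In 40 h aggregates of the same capture as run 1, at medians of 29674 and 28271 UMIs, 3 of 1016 cells at 0 mM (0.295%, 0.0609 to 0.860%) and 10 of 1096 at 4 mM (0.912%, 0.438 to 1.67%) passed the same rule. After thinning to 5000 UMIs, 2.07 and 3.56% of aggregate cells held at least 1 UMI of the 3 genes. Free RNA and low expression cannot be told apart at this level, which comes from the same capture as the run 1 blastoids. These intervals cover counting of cells alone, and with 1 aggregate arm per dose no test was made.

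**Figure D1:**
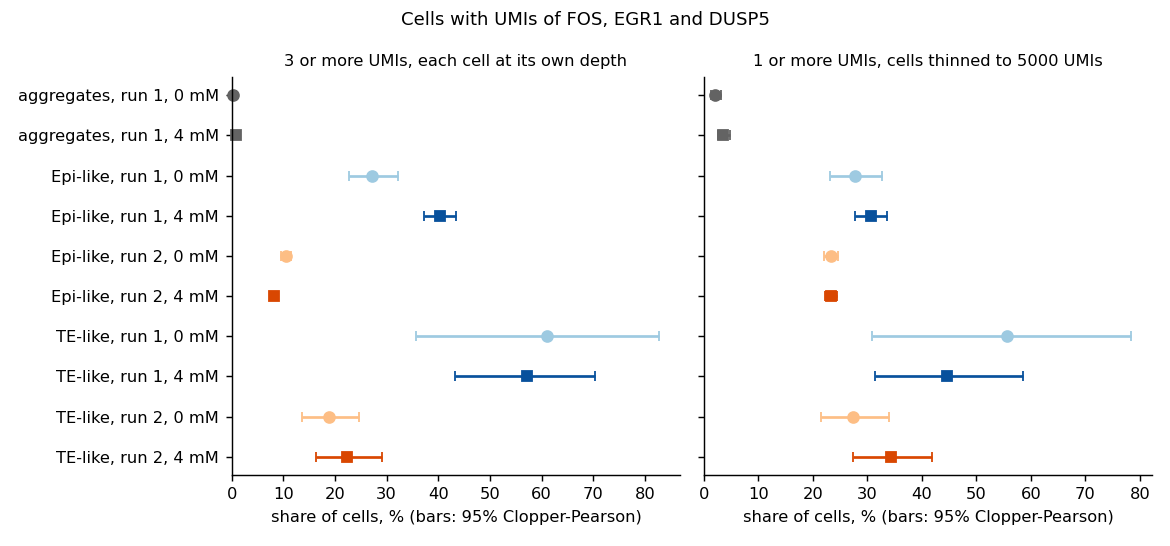
Share of cells (horizontal axes, %) with 3 or more UMIs of FOS, EGR1 and DUSP5 at each cell's own depth (left) and with 1 or more after thinning each cell to 5000 UMIs (right), by arm and cell class, circles for 0 mM and squares for 4 mM, with 95% Clopper-Pearson intervals. Aggregates stay below 4% in both panels, while Epi-like blastoid cells lie between 8.21 and 40.4% on the left and close together, between 23.3 and 30.6%, on the right.

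The dose gave no common direction. The share of high cells at 4 mM was 1.48 times that at 0 mM in run 1 (95% interval of the ratio 1.23 to 1.78) and 0.784 times in run 2 (0.689 to 0.892). When every cell was thinned to 5000 UMIs, 27.8 and 30.6% of Epi-like cells carried at least 1 UMI of the 3 genes in run 1, and 23.3 and 23.3% in run 2. The ratios were then 1.10 (0.911 to 1.33) and 0.999 (0.927 to 1.08). Exchanging doses within runs allows no p below 0.5, so these ratios carry no test.

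The 3 genes did not follow the dose in the same way. After thinning, FOS was found in 11.9 and 11.9% of Epi-like cells in run 1 and in 9.25 and 7.31% in run 2, with ratios of 0.999 (0.720 to 1.38) and 0.790 (0.689 to 0.907). EGR1 was found in 3.61 and 5.67% in run 1 and in 2.77 and 1.78% in run 2, so that its ratios of 1.57 and 0.645 pointed opposite ways. DUSP5 was found in 13.9 and 16.6% in run 1 and in 13.5 and 15.8% in run 2, with ratios of 1.20 (0.892 to 1.60) and 1.17 (1.06 to 1.29). Of the 3 genes, DUSP5 was the one more frequent at 4 mM in both runs. These intervals cover counting of cells in 1 culture per dose and run, so no effect of dose is read from them.

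Summed over all Epi-like cells, levels were taken as counts per 1000000 UMIs (CPM). EGR1 and DUSP5 moved with dose in the same directions as their shares. FOS, level by share in run 1, was higher there at 4 mM by CPM, with overlapping Poisson intervals (25.3 to 31.9 and 30.4 to 34.4 CPM). FOS stood at 28.4, 32.3, 20.0 and 14.7 CPM in the 4 arms, against 1.44 and 1.45 CPM in the aggregates. EGR1 stood at 7.99, 11.6, 5.23 and 3.15 CPM, against 0.160 and 0.371 CPM. DUSP5 stood at 34.7, 39.7, 29.7 and 34.5 CPM, against 2.97 and 5.68 CPM. In run 1, where both stages were captured together, each blastoid arm lay above both aggregate arms for each gene, and the exact 95% Poisson intervals did not meet. The aggregates were still in the MEK inhibitor, a difference that cannot be told apart from stage, dissociation time and picking.

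TE-like cells of the same blastoids carried FOS and DUSP5 too, but little EGR1. By the same rule 61.1, 57.1, 18.8 and 22.3% of the 18, 56, 208 and 175 TE-like cells were high. DUSP5 was higher in TE-like than in Epi-like cells in each arm, at 78.0, 71.2, 55.6 and 61.6 CPM. EGR1 was lower in each arm, at 0, 2.68, 1.57 and 0.645 CPM from 0, 5, 6 and 2 UMIs, where 3 counts in place of the 0 would give 6.16 CPM. The Poisson intervals of the classes were apart in each arm for DUSP5, and for EGR1 in each arm except run 1 at 0 mM.

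**Figure D2:**
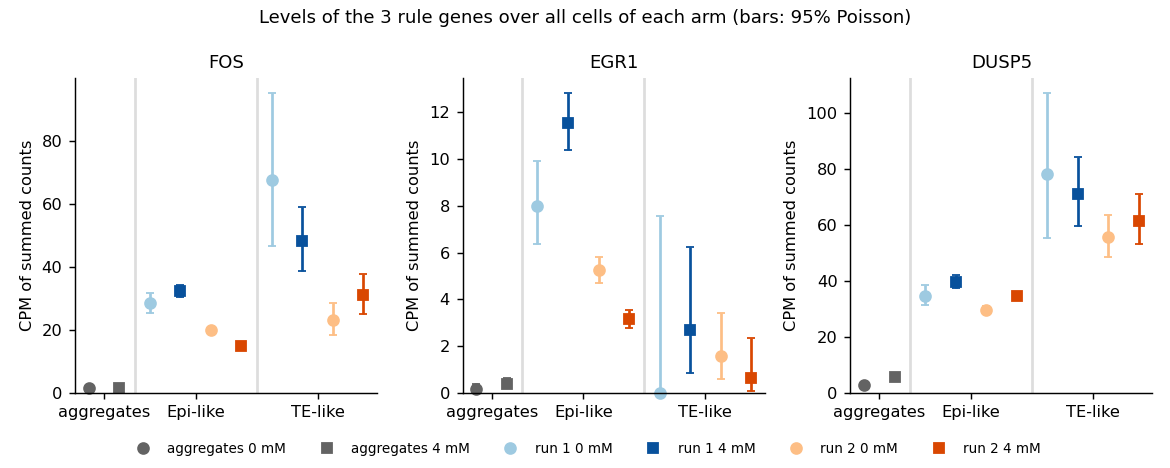
CPM of counts summed over all cells of an arm (vertical axes, from 0) for FOS, EGR1 and DUSP5 in aggregates, Epi-like and TE-like cells, with exact 95% Poisson intervals for counting error, circles for 0 mM and squares for 4 mM. FOS and EGR1 fall from 0 to 4 mM among run 2 Epi-like cells (20.0 to 14.7 and 5.23 to 3.15 CPM), while DUSP5 goes from 29.7 to 34.5 CPM.

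To ask what else marked the high cells, each was paired with 1 zero cell of its own arm within 10% of its UMI total, and counts were summed per arm and group. The pairs numbered 60, 147, 384 and 407, out of 98, 406, 417 and 419 high cells. Fewer high cells of run 1 found a partner within 10% of depth among its 99 and 179 zero cells. Median depth over all its high cells was 33938 and 32997 UMIs, against 29738 and 26730 UMIs over the paired ones. Deep high cells of run 1 are thus underrepresented in the pairs. Median depths of the paired groups were 29738 and 29567, 26730 and 26591, 20001 and 20009, and 19578 and 19583 UMIs. FOS in the paired high cells stood at 71.6, 69.0, 67.6 and 49.6 CPM, EGR1 at 17.9, 22.3, 17.7 and 9.35 CPM and DUSP5 at 79.2, 69.2, 86.0 and 112 CPM, all 3 at 0 in the zero cells by construction.

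The differences outside the 3 genes were few and mostly small. Of 12714 genes tested with edgeR's quasi-likelihood test, 68 were higher in high cells (0.535%) and 16 lower (0.126%, together 0.661%) at an adjusted p of 0.05. The median absolute change of the 84 genes amounted to 0.34 in log2 units, that is 1.27-fold. Log2 differences above 1 were found for 6 genes and below -1 for 0. The 6 were EGR3, FOSB, ID3, VIM, PTPRZ1 and AC137932.3, of which the last pair are named here after their values were seen. All 4 arms had the same sign for 58 of the 84 genes, against 15.2% of all genes tested, and since the fit calls genes for their agreement between arms nothing is read from that share. The count fell when an arm of run 2 was left out. Without its 0 mM arm 6 genes were higher and 0 lower, without its 4 mM arm 10 and 1. Without run 1 at 0 mM 84 and 50 were called, without run 1 at 4 mM 99 and 31, and DESeq2 called 7 and 0 in the main comparison. CCND2, EGR3, ID3, KRT8, KRT18 and THY1 were called without each arm in turn, and all of these except THY1 also by DESeq2.

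Immediate early transcription factors led by size. Among the 16 tested, 3 rose, 0 fell and 13 did not pass, with a median log2 difference of 0.36 against 0.002 over all genes tested. Run 1 alone gave 0 rises of 13 tested and a median of 0.13, and run 2 alone 4 of 16 and 0.35. Over all genes tested, 3 were higher in run 1 alone and 137 in run 2 alone. By DESeq2, JUNB and FOSB did not pass. EGR3, a partner of EGR1 in the same family of zinc finger factors, stood at 8.68, 3.83, 5.14 and 3.5 CPM in high cells and at 1.09, 1.22, 0.989 and 0.944 CPM in zero cells. Each high group lay above each zero group, although the counts behind them were small (16, 16, 42 and 30 UMIs against 2, 5, 8 and 8). EGR3 rose by 2.13 ± 0.30 (SE; n = 4 arms; edgeR adjusted p = 6.24e-06).

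JUNB, which pairs with FOS proteins in the AP-1 complex, stood at 38.5, 27.1, 35.3 and 34.3 CPM in high cells and 25.1, 17.0, 27.5 and 26.7 CPM in zero cells. It was higher within each arm and rose by 0.43 ± 0.09 (edgeR adjusted p = 0.00429). FOSB, a FOS paralogue, rose by 1.48 ± 0.32 (edgeR adjusted p = 0.00804), but this came from run 2. FOSB counts were 1, 5, 47 and 31 UMIs in high cells and 3, 2, 10 and 14 in zero cells, so run 1 at 0 mM pointed the other way. Other members did not pass, and JUN differed by 0.37 ± 0.14, NR4A1 by 0.52 ± 0.19, MYC by 0.41 ± 0.15 and ATF3 by 0.18 ± 0.09. KLF4, which is also a naive pluripotency factor, differed by -0.23 ± 0.08 and did not pass either.

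Of 22 other immediate early genes tested, 4 rose and 0 fell, with a median of 0.18. ID3, an inhibitor of basic helix-loop-helix factors, stood at 10.3, 17.0, 10.6 and 8.53 CPM in high cells and 3.81, 7.29, 3.71 and 4.48 CPM in zero cells. It was higher in each arm and rose by 1.22 ± 0.17 (edgeR adjusted p = 2.26e-06). CCN1, a secreted matrix protein and serum response target, stood at 28.2, 11.0, 14.2 and 10.6 CPM against 13.1, 7.53, 11.9 and 6.61 CPM. The groups overlap across arms, and within arms CCN1 was higher in 4 of 4 (log2 0.55 ± 0.14, edgeR adjusted p = 0.0371). CCN1 did not pass when any single arm was left out, in either run alone or by DESeq2. It also did not pass at 2 or more or at 5 or more UMIs. The abundant IER2 rose by 0.27 ± 0.05 and the survival factor gene MCL1 by 0.19 ± 0.05, both higher in 4 of 4 arms. GADD45B (0.36 ± 0.10) and CCN2 (0.48 ± 0.16) did not pass.

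Genes that dampen or report ERK signalling rose in part. The rises of DUSP4, SPRY4 and PHLDA1 given below did not hold in every fit. None of them passed by DESeq2, without either arm of run 2, in run 1 alone or at 5 or more UMIs. Of 7 other dual specificity phosphatases, DUSP4 rose, 6 did not pass and the median was 0.06. DUSP4 stood at 5.42, 9.10, 11.7 and 10.4 CPM in high cells and 4.36, 5.59, 6.06 and 8.02 CPM in zero cells, higher within each arm (log2 0.63 ± 0.16, edgeR adjusted p = 0.0348). DUSP6, the cytoplasmic ERK phosphatase, stood at 2.71, 5.51, 4.16 and 3.39 CPM against 3.81, 3.65, 2.84 and 1.89 CPM and did not pass (0.54 ± 0.25). DUSP1 likewise did not pass (0.30 ± 0.17).

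Of 15 ERK feedback and target genes, 3 rose and 0 fell, with a median of 0.19 and 14 of 15 above 0. SPRY4, a Sprouty inhibitor of receptor signalling, stood at 4.88, 9.82, 7.46 and 9.81 CPM against 4.36, 6.80, 4.45 and 5.19 CPM, higher within each arm (log2 0.72 ± 0.17, edgeR adjusted p = 0.0242). PHLDA1 stood at 22.8, 47.7, 24.3 and 37.0 CPM against 23.4, 29.9, 17.6 and 29.4 CPM and rose by 0.42 ± 0.09, with 3 of 4 arms higher. The ETS factor gene ETV4 was just outside the threshold (0.25 ± 0.07, edgeR adjusted p = 0.0529). The 25 ligands, receptors and kinases of the FGF and ERK pathway itself gave 0 calls and a median of 0.05.

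Of 12 tested G1 and cyclin genes, 2 rose and 0 fell, with a median of 0.11. These were a pair of D-type cyclins, which carry mitogen signals into the cell cycle, while the other D-type cyclin gene, CCND3, differed by -0.06 ± 0.09 and did not pass. CCND2 stood at 72.7, 116, 97.1 and 125 CPM in high cells and 46.9, 84.8, 63.1 and 75.3 CPM in zero cells (log2 0.61 ± 0.06, edgeR adjusted p = 2.96e-11). CCND1 stood at 171, 102, 203 and 150.2 CPM against 114, 93.8, 155 and 120.1 CPM (log2 0.34 ± 0.05, edgeR adjusted p = 4.43e-05). Both were higher within each arm, and across arms the levels of the groups overlapped.

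**Figure D3:**
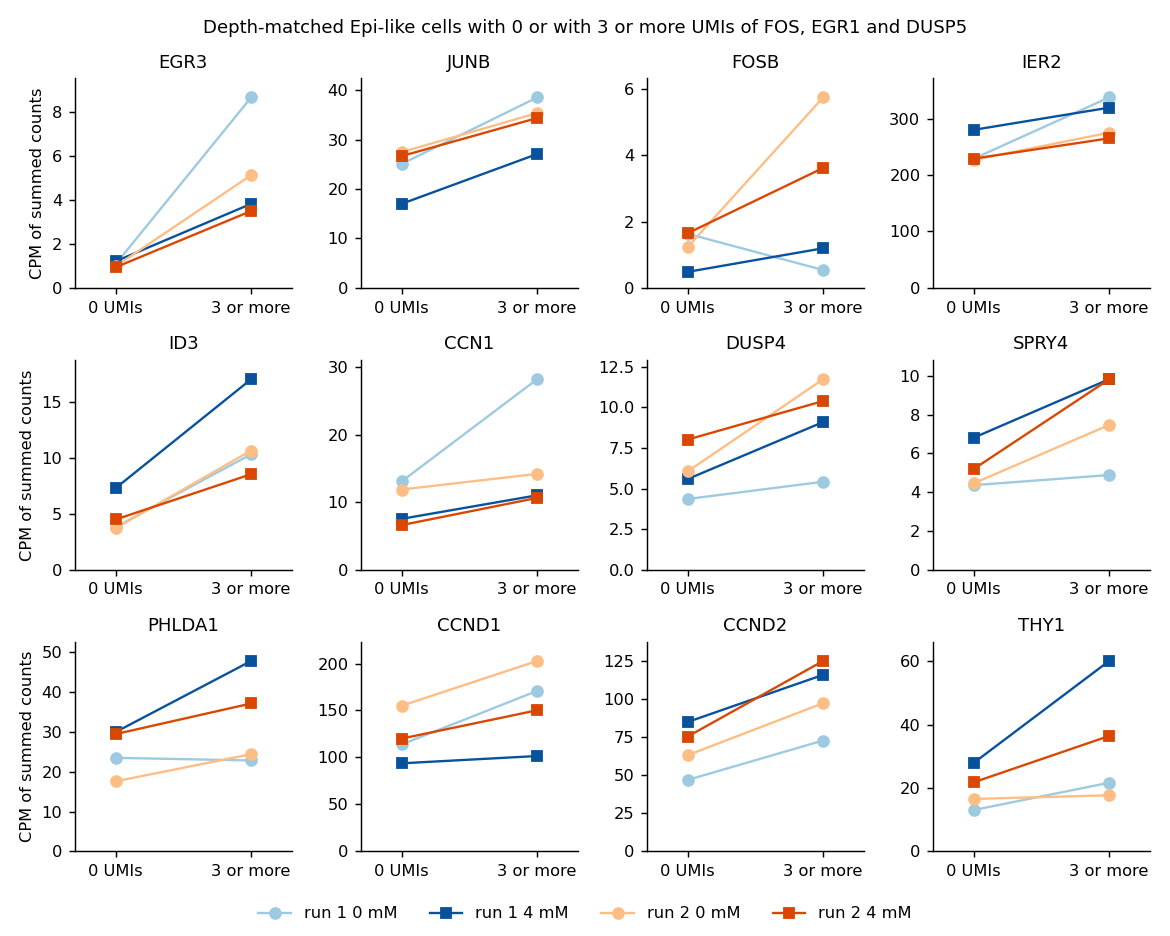
CPM of summed counts (vertical axes, from 0) of 12 genes in depth-matched Epi-like cells with 0 or with 3 or more UMIs of FOS, EGR1 and DUSP5, 1 line per arm. The lines rise in all 4 arms for 10 of the 12 genes, and FOSB and PHLDA1 have 1 falling line each, run 1 at 0 mM.

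Some genes linked to the later, post-implantation epiblast rose, and 1 naive-state gene fell. Of 20 tested formative and post-implantation genes, 4 rose (SFRP2, THY1, USP44 and VIM) and 0 fell, with a median of 0.18. THY1, a surface protein of primed pluripotent cells, stood at 21.7, 60.1, 17.7 and 36.4 CPM against 13.1, 27.9, 16.6 and 21.8 CPM, higher within each arm (log2 0.67 ± 0.10, edgeR adjusted p = 3.62e-05). SFRP2, a secreted WNT antagonist, rose by 0.68 ± 0.12 and USP44, a deubiquitinase, by 0.46 ± 0.11. VIM rose by 1.70 ± 0.39 on 2, 13, 28 and 18 UMIs against 4, 4, 7 and 3, with run 1 at 0 mM the other way. VIM did not pass under the 25% TE gate described below (1.03, edgeR adjusted p = 0.483), with phase matching (1.19, 0.105), at 2 or more UMIs (0.68, 0.292), with HTODemux singlets (1.43, 0.0555) or by DESeq2.

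The core pluripotency genes did not separate the groups. None of 10 passed, and the median was -0.03. POU5F1 differed by -0.03 ± 0.03, NANOG by -0.07 ± 0.05 and SOX2 by -0.17 ± 0.06. Of 23 naive pluripotency genes 1 fell and 0 rose (median -0.01). That gene was PRAP1, at 178, 123, 136 and 151 CPM in high cells and 191, 155, 174 and 169.9 CPM in zero cells (-0.26 ± 0.05, edgeR adjusted p = 0.00123).

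Genes with the largest falls at 20 CPM or more included APELA, which codes for a small secreted hormone of pluripotent cells. APELA stood at 42.8, 31.1, 30.7 and 25 CPM in high cells and 49.6, 33.3, 46.9 and 39.3 CPM in zero cells, lower within each arm (log2 -0.49 ± 0.08, edgeR adjusted p = 3.12e-04). The lysine-degrading enzyme gene AASS fell by 0.30 ± 0.05, the protease gene CTSC by 0.26 ± 0.05, the glycogen phosphorylase gene PYGB by 0.22 ± 0.05 and OLAH, of fatty acid release, by 0.30 ± 0.07 on the log2 scale. COX7B2 fell by 0.40 ± 0.09, RRAD by 0.33 ± 0.07, FAM151A by 0.23 ± 0.05, DMAC1 by 0.26 ± 0.06 and ABRACL by 0.21 ± 0.06. HOXB-AS1 fell by 0.29 ± 0.07, and reads of an antisense gene and its partner cannot be told apart where the use of strand is not stated. All were required to be lower in 4 of 4 arms to be named.

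KRT18, a keratin gene of the TE, had the smallest p-value of the comparison. Of 15 TE markers 4 rose (ABCG2, KRT18, KRT8 and SLC2A3) and 0 fell, with a median of 0.30. KRT18 stood at 185, 322, 252 and 278 CPM in high cells and 156, 206, 175 and 187 CPM in zero cells (log2 0.53 ± 0.05, edgeR adjusted p = 9.86e-13). KRT8, its filament partner, stood at 51.5, 82.9, 71.2 and 86.6 CPM against 48.5, 43.0, 57.5 and 54.3 CPM (log2 0.54 ± 0.07, edgeR adjusted p = 1.39e-06). Both belong to the gate that set Epi-like cells apart, which bounded them alike in both groups, and KRT18 has many near-identical copies in the genome, so its counts are uncertain to that extent.

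The summed level of 7 TE markers moved with the group, at 266, 425, 360 and 400 CPM in high cells against 227, 276, 266 and 266 CPM in zero cells, and none of the 7 was at 0. When TE marker UMIs were held to at most 25% of Epi marker UMIs, KRT18 still rose, by 0.27 ± 0.06 (edgeR adjusted p = 0.00612), while KRT8 differed by 0.26 ± 0.08 and no longer passed (edgeR adjusted p = 0.155). EGR3 (2.06 ± 0.30), CCND2 (0.54 ± 0.06) and ID3 (1.04 ± 0.18) still rose under that gate. In all, 53 of the 84 genes were called again, and of 13 TE markers KRT18 alone passed. Named genes that no longer passed included SPRY4 (0.59, edgeR adjusted p = 0.158), USP44 (0.40, 0.0840), SMAD7 (0.28, 0.0795), SLC2A3 (0.20, 0.146) and ABCG2 (0.61, 0.188), with their log2 differences under the gate. The 7 Epi markers summed to between 4849 and 5120 CPM in high cells and 5060 to 5147 CPM in zero cells, 6 primitive endoderm markers to 13.6 to 21.8 and 16.7 to 19.8 CPM, and 3 feeder markers to 5.42 to 9.93 and 2.92 to 9.26 CPM with COL3A1 at 0.

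G2/M genes passed in run 2 alone and not in run 1 alone, a difference that was not tested. Over both runs 8 of 54 rose and 0 fell (median 0.17, with 53 of 54 above 0). Run 2 alone gave 25 rises and a median of 0.26, and run 1 alone gave 0 of 53 and a median of -0.05. Over all genes tested, run 2 alone gave 137 higher and 94 lower, and run 1 alone 3 and 0. Few genes of any kind thus passed in run 1 alone. TOP2A, the DNA topoisomerase of dividing cells, stood at 92.7, 63.0, 192 and 183 CPM in high cells and 62.7, 74.1, 139 and 115 CPM in zero cells, so run 1 at 4 mM went the other way (log2 0.44 ± 0.06, edgeR adjusted p = 1.99e-05). Cells called G2/M by their scores made up 38.3, 27.9, 50.5 and 52.6% of high cells and 35, 40.8, 39.1 and 38.6% of zero cells. With pairs matched on phase as well, 2 of the 54 rose (AURKA and TOP2A) and the median was 0.06, while EGR3 (1.94 ± 0.29), CCND2 (0.64 ± 0.06) and THY1 (0.60 ± 0.10) still rose. With phase matching 58 of the 84 genes were called again. DUSP4 (0.57, edgeR adjusted p = 0.0545), PHLDA1 (0.30, 0.0757), CCN1 (0.44, 0.116), ABCG2 (0.51, 0.237) and RRAD (-0.25, 0.0596) did not pass there. Nor did TTK (0.23, edgeR adjusted p = 0.319), ERCC6L (0.31, 0.106) and CENPE (0.14, 0.582). S phase genes gave 0 calls of 43.

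Most other programmes showed no gene past the threshold. There were 0 calls among 12 heat shock genes (median -0.02), 20 ATF4 targets (0.04), 15 p53 targets (-0.001), 5 NF-kappaB targets (0.03), 15 NRF2 targets (0.03), 36 ribosomal protein genes (-0.008) and 13 mitochondrially encoded genes (-0.01). The 9 primitive endoderm markers, 8 LPA receptor genes and relatives, 4 mesoderm and 3 amnion markers tested also gave 0 calls. FOSB was the single call among 6 CREB response genes. Among 22 hypoxia and glycolysis genes, of which 21 were tested, the glucose transporters SLC2A1 (0.39 ± 0.06) and SLC2A3 (0.28 ± 0.06) rose. Of 18 SRF and YAP targets 1 rose, AMOTL2, a junction protein of the Hippo pathway (0.47 ± 0.10), and the median was 0.13. SMAD7 (0.31 ± 0.07) rose alone among 11 Nodal and TGF-beta feedback genes. Among the largest rises at 20 CPM or more were also PIF1 (0.34 ± 0.06), TTK (0.37 ± 0.09), ERCC6L (0.37 ± 0.09) and FNBP1 (0.39 ± 0.10). TTK belongs to the G2/M list, and TTK and ERCC6L did not pass with phase matching. ERCC6L and FNBP1 passed in 0 of the fits that left out 1 arm. None of these genes passed by DESeq2.

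**Figure D4:**
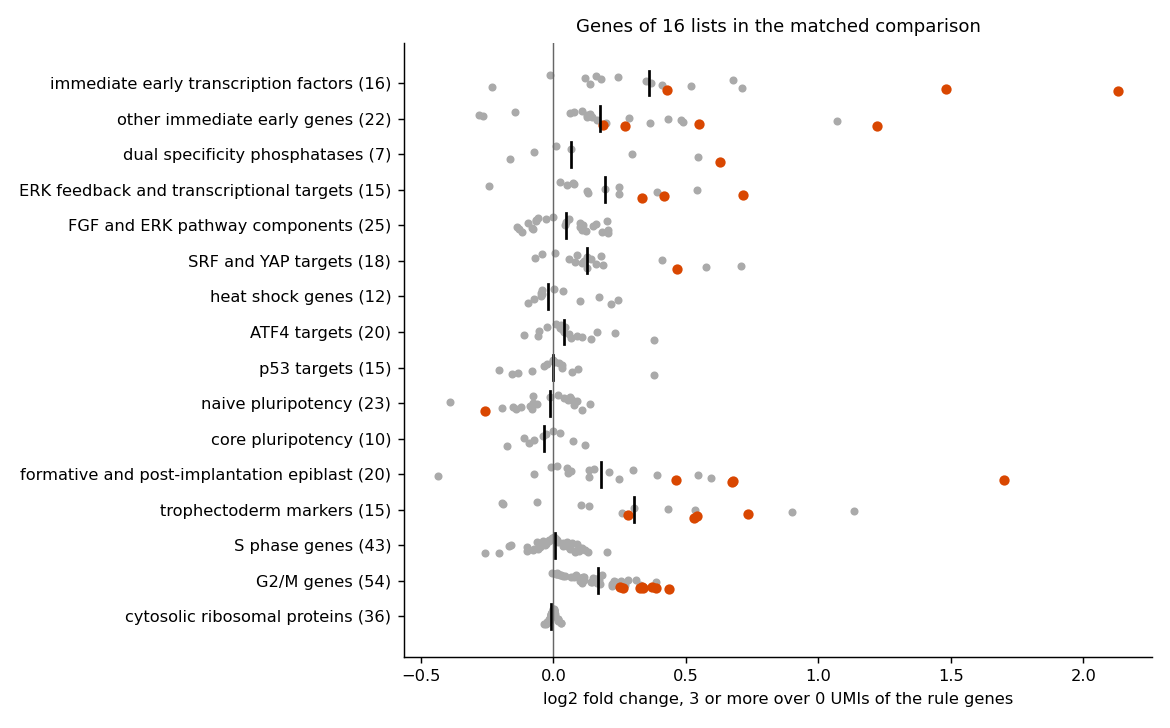
Log2 fold change (horizontal axis) of high over zero cells for the tested genes of 16 lists (number tested in brackets), 1 point per gene, orange where the adjusted p was under 0.05, with a black line at each list's median. The immediate early transcription factors (median 0.36) and TE markers (0.30) lie furthest right, and ribosomal protein genes cluster at 0.

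Measures of cell quality did not separate the paired groups in a common direction. Mitochondrial shares were 4.00, 4.11, 4.11 and 4.2% in high cells and 4.60, 4.17, 4.05 and 4.10% in zero cells. Genes per cell were 5114, 4940, 4362 and 4299 against 5202, 4974, 4307 and 4258. The top hashtag held 93.6, 93.3, 97.7 and 94.7% of hashtag UMIs in high cells and 93.2, 94.3, 97.6 and 94.9% in zero cells. The share called G1 was lower in high cells in 4 of 4 arms (3.33, 3.40, 5.99 and 3.44% against 6.67, 5.44, 8.59 and 9.83%), where the exact two-sided sign-flip test gave p = 0.125, the smallest it can give with 4 arms.

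Cells chosen by FOS or EGR1 alone and cells chosen by DUSP5 alone differed in which of the other rule genes passed, though the difference itself was not tested. Cells with 2 or more UMIs of a gene were paired with cells holding 0 of that gene, whatever they held of the others, so that the remaining rule genes could be tested. Pairs numbered 65, 239, 248 and 209 for FOS, 19, 72, 48 and 16 for EGR1, and 87, 284, 433 and 632 for DUSP5. In FOS cells, EGR1 stood at 14.0, 18.3, 9.26 and 6.99 CPM against 2.70, 8.21, 3.03 and 2.33 CPM and rose by 1.39 ± 0.17 (edgeR adjusted p = 5.23e-13). Each FOS group lay above its zero group in the same arm. DUSP5 stood at 50.9, 38.5, 30.6 and 40.3 CPM against 28.3, 41.6, 27.8 and 31.7 CPM in these cells and did not pass (0.16 ± 0.08, edgeR adjusted p = 0.552).

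In EGR1 cells, FOS stood at 56.5, 64.2, 31.6 and 45.5 CPM against 33.0, 22.9, 20.5 and 22.7 CPM and rose by 1.13 ± 0.19 (edgeR adjusted p = 3.10e-04). DUSP5 differed by 0.01 ± 0.19 there. In DUSP5 cells, FOS stood at 40.1, 32.7, 23.0 and 16.1 CPM against 28.9, 31.2, 20.9 and 11.1 CPM, higher within each arm. FOS differed by 0.25 ± 0.08 (edgeR adjusted p = 0.176) and EGR1 by -0.05 ± 0.14 there, neither past the threshold. FOS and EGR1 thus rose with each other, while neither passed with DUSP5, although FOS was higher within each arm of that selection.

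Cells were also compared one by one at equal depth. After thinning to 5000 UMIs, EGR1 was found in 2.33, 8.33, 5.16 and 3.49% of cells with FOS and in 3.79, 5.30, 2.52 and 1.65% of cells without. It was more frequent beside FOS in 3 of 4 arms, and in run 1 at 0 mM only 43 cells carried FOS. DUSP5 was found in 4.65, 15, 14.9 and 14.5% of cells with FOS and in 15.1, 16.8, 13.4 and 15.9% of those without. DUSP5 was less frequent beside FOS in 3 of 4 arms.

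Some other genes passed with 1 selection and others with both. Selected on FOS, 59 genes were higher (0.487% of 12112) and 26 lower (0.215%, together 0.702%), and on DUSP5 75 were higher (0.553% of 13555) and 22 lower (0.162%, together 0.716%). FOSB rose by 2.06 ± 0.36 with FOS (edgeR adjusted p = 8.63e-06) and differed by -0.20 ± 0.26 with DUSP5. EGR3 rose by 1.61 ± 0.28 with FOS and by 2.65 ± 0.56 with EGR1, where run 2 at 4 mM, with 16 pairs, was level at 13.0 and 13.0 CPM. JUNB rose by 0.39 ± 0.09 with FOS. With DUSP5, EGR3 differed by 0.37 ± 0.23 and JUNB by 0.21 ± 0.07, and neither passed. TOP2A rose by 0.36 ± 0.05 with FOS and by 0.16 ± 0.04 with DUSP5.

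Of 17 ERK feedback genes 3 passed with DUSP5 and, of 15, 1 with FOS (CCND1). Of the formative and post-implantation genes, 3 of 21 passed with DUSP5 (SFRP2, THY1 and ZIC2) and 1 of 20 with FOS (DNMT3B), and ZIC2, DNMT3B and CCND3 are named after their values were seen. Of 22 other immediate early genes, 5 passed with DUSP5 (CCN1, GADD45B, ID3, IER2 and ZFP36L2) and 2 with FOS (CCN2 and IER2), and MYC passed with DUSP5 among 19 immediate early transcription factors. CCND2 rose by 0.66 ± 0.04 (edgeR adjusted p = 1.64e-19) and differed by 0.10 ± 0.06 with FOS. ID3 rose by 0.84 ± 0.13 with DUSP5 and differed by 0.21 ± 0.16 with FOS. SPRY4 rose by 0.54 ± 0.14, PHLDA1 by 0.29 ± 0.07, THY1 by 0.48 ± 0.08, SFRP2 by 0.48 ± 0.09 and CCN1 by 0.45 ± 0.12 with DUSP5. None of the 5 passed with FOS. CCN1 differed there by 0.48 ± 0.15 (edgeR adjusted p = 0.0943), no less than with DUSP5, and was higher within each arm. The FOS selection held fewer pairs, and the others differed there by 0.13 to 0.18. Of 18 SRF and YAP targets, 5 rose with DUSP5 (ACTB, ACTG1, AMOTL2, TAGLN and TPM4) and 0 with FOS. CCND1, IER2, KRT8, KRT18 and TOP2A rose with both FOS and DUSP5. The same cells can stand in more than 1 of the selections.

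KRT18 had opposite signs with DUSP5 and EGR1. In DUSP5 cells it stood at 216, 313, 295 and 291 CPM against 134, 207, 183 and 194 CPM and rose by 0.63 ± 0.03 (edgeR adjusted p = 1.41e-25). In EGR1 cells it stood at 118, 174, 124 and 110.5 CPM against 121, 287, 205 and 94.2 CPM, with a log2 difference of -0.58 ± 0.10 (edgeR adjusted p = 9.56e-04). In FOS cells it rose by 0.19 ± 0.04, higher in 3 of 4 arms. The fall with EGR1 was seen in 3 of 4 arms, not in the 16 pairs of run 2 at 4 mM, and EGR1 selection gave 5 higher and 2 lower genes of 7708 in all (0.0649 and 0.0259%, together 0.0908%). Beside FOS, EGR3 and KRT18, these were GDF15, GTF2H5, MALAT1 and NEAT1, named here after their values were seen.

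**Figure D5:**
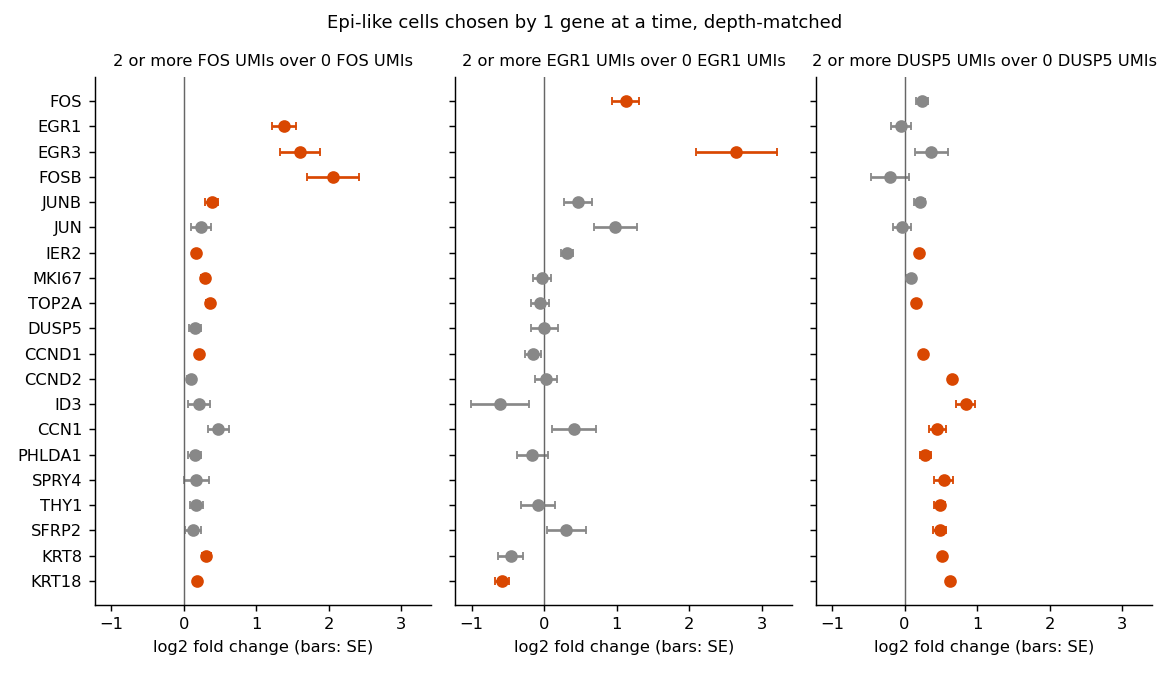
Log2 fold change (horizontal axes, points with SE bars) of 20 genes in Epi-like cells with 2 or more UMIs of FOS (left), EGR1 (middle) or DUSP5 (right) over depth-matched cells with 0 of that gene, orange where the adjusted p was under 0.05. EGR1, EGR3 and FOSB lie at 1.39, 1.61 and 2.06 with FOS and at -0.05, 0.37 and -0.20 with DUSP5, EGR1 selection left FOSB and SPRY4 below the count filter, and KRT18 lies at -0.58 with EGR1 and at 0.63 with DUSP5.

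Within the high cells, 281 genes rose (2.15% of 13050) and 217 fell (1.66%, together 3.82%) after 4 mM dm-αKG with run in the model, and all 498 had the same sign in both runs, which the choice of genes by this fit favours. These calls rest on 4 sums with 1 residual degree of freedom, and DESeq2 gave 21 and 18. The make-up of the high cells also differed by dose. Those with DUSP5 alone were 9.18 and 13.8% at 0 and 4 mM of run 1, and 16.3 and 32.0% in run 2. The part of this in the calls was not tested. THY1 stood at 18.0 and 48.3 CPM at 0 and 4 mM of run 1, then 18.8 and 36.9 CPM in run 2 (1.12 ± 0.13). It was also higher at 4 mM in the paired zero cells, at 13.1 and 27.9 CPM in run 1 and 16.6 and 21.8 CPM in run 2. ERK feedback and target genes split, with 4 of 17 higher and 2 lower. SPRY1 stood at 7.09 and 13.2 CPM at 0 and 4 mM of run 1, then 6.61 and 12.2 CPM in run 2 (0.87 ± 0.19), and the ETS factor genes ETV1 (0.72 ± 0.14) and ETV5 (0.76 ± 0.21) and PHLDA1 (0.54 ± 0.12) rose as well. CCND1 stood at 159.7 and 102 CPM at 0 and 4 mM of run 1, then 197 and 149 CPM in run 2 (-0.53 ± 0.07). CCND2 rose (0.51 ± 0.08). In the paired zero cells these named genes moved the same way in both runs, except ETV5 in run 1. SPRY1 stood there at 8.72 and 12.4 CPM in run 1 and at 7.42 and 10.5 CPM in run 2. CCND1 stood there at 114 and 93.8, then 155 and 120.1 CPM, and CCND2 at 46.9 and 84.8, then 63.1 and 75.3 CPM. These changes by dose were thus not particular to the high cells.

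Most other immediate early genes did not pass by dose, and 5 of the 6 that passed were lower. JUND stood at 249 and 159 CPM at 0 and 4 mM of run 1, then 239 and 189.6 CPM in run 2 (-0.50 ± 0.07) and was the single call among 17 immediate early transcription factors, whose median was -0.22. GADD45B stood at 41.6 and 21.8 CPM at 0 and 4 mM of run 1, then 32.7 and 24.9 CPM in run 2 (-0.65 ± 0.13), and CCN1 (-0.74 ± 0.17), BTG2 (-0.78 ± 0.21) and SGK1 (-0.31 ± 0.09) also had lower levels at 4 mM, while MCL1 rose (0.31 ± 0.07). All 6 moved the same way with dose in the paired zero cells of both runs. JUND stood there at 188 and 173 CPM at 0 and 4 mM of run 1, then 213 and 170 CPM in run 2. In high cells EGR3 stood at 7.97 and 4.27 CPM at 0 and 4 mM of run 1, then 4.57 and 3.51 CPM in run 2. It did not pass (-0.66 ± 0.26). Among the largest changes at 20 CPM or more were rises of the gluconeogenic enzyme gene FBP1 (0.94 ± 0.12), the chemokine gene CCL26 (0.91 ± 0.14) and the glutathione-degrading CHAC1 (0.89 ± 0.14). Falls among them were those of the alkaline phosphatase gene ALPG (-0.92 ± 0.07), BST2 (-0.78 ± 0.14), FXYD6 (-0.76 ± 0.12) and the heat shock gene HSPA1A (-0.74 ± 0.11).

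Whether the change from zero to high cells itself depended on dose was tested as the group by dose term. Of 12714 genes, 0 passed in edgeR (0%), 501 had an unadjusted p under 0.05, and DESeq2 gave 0 and 5. No dose difference of the change was called, which does not show that there was none.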

How the data were processed

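Reads were aligned to GRCh38 and counted by the authors with Cell Ranger 6.1.2, per the labels and the study's methods, and what they deposited is, for every barcode, a UMI count for each gene and each hashtag. Each arm is 1 pooled culture read from its hashtag. Barcodes were kept when 1 hashtag held at least 80% of hashtag UMIs, mitochondrial genes at most 15% of UMIs, and UMIs reached 7000 in run 1 or 5000 in run 2, which left 13017 of 24564 barcodes. No doublet caller was run beyond the hashtag filter, so doublets within a culture remain. Epi-like cells of the 4 blastoid arms held 10509926 to 85275888 UMIs. The members and the 28 gene lists were chosen with earlier results of these data known. High and zero cells were paired 1 to 1 within an arm on UMI total, their counts were summed to 8 sums, and edgeR 4.0.16 fitted the quasi-likelihood test with TMM factors, its default count filter, arm as a block and 3 residual degrees of freedom, with FOS, EGR1 and DUSP5 left out of the tests. High and zero sums of an arm come from the same culture, which is what pairs them. Log2 values are edgeR estimates ± SE, adjusted by Benjamini-Hochberg over all genes tested, and an adjusted p under 0.05 counts as passing. CPM values are UMIs scaled to 1000000 UMIs of the sum. With 2 runs per dose, the p-values rest on few arms, and the spread behind them is mostly shared over genes. The main fit took 53.7 degrees of freedom from all genes together, against 3 of a gene's own. In the dose fit these were 48.4 against 1. The p-values therefore do not measure the spread of a single gene between arms alone. Cell cycle phases were called from the S and G2/M lists with scanpy 1.11.5. Named genes were the 12 largest changes per direction at 20 CPM or more with the same sign in 4 arms, up to 4 passing genes per list, members of the immediate early, phosphatase and ERK lists, and the Epi-like rule genes. Alternatives included DESeq2 1.42.0, HTODemux of Seurat 5.3.0 and fits without each arm. The statistical scripts were tested on simulated data. Intervals cover counting error only. Promoter windows are from RefSeq (GRCh38.p14), and gene coordinates from GENCODE on GRCh38.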

Additional observations from a re-analysis of the deposited data

Results flagged for a closer look

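For 45 named genes, the log2 ratio of high over zero cells (with 0.5 CPM added to both) was compared between the 4 arms, and 7 genes had 1 arm far from the other 3. Chance flags about 1 in 20 such groups. Run 1 at 0 mM stood apart for VIM at -0.76, ABCG2 at -0.50, FAM151A at -0.083 and ERCC6L at 0.59. Run 1 at 4 mM stood apart for PTPRZ1, a receptor phosphatase gene named after its values were seen, at 1.88, for CENPE at -0.36 and for MCL1 at 0.31. All 7 came from run 1, the run with fewer paired cells, and whether this has a part in them was not tested.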

How the results depend on the processing

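The direction of single genes was steadier than the number called. Over 45 named genes and 22 alternatives, 925 of 941 values kept their direction, 16 turned and 539 passed again. These genes were named because they passed the main fit, and the alternatives reuse the same or overlapping cells. A kept direction was thus favoured in advance and is no independent support. With 68 genes higher and 16 lower in the main comparison, unmatched zero cells gave 272 and 144, DESeq2 7 and 0, thinning to 5000 UMIs 1 and 1, at least 5 UMIs 31 and 6, EGR1 alone 5 and 2, run 1 alone 3 and 0 (513 genes at an unadjusted p under 0.05 in edgeR), run 2 alone 137 and 94, and the fit with no replicate block 0 and 0 (333 genes at an unadjusted p under 0.05 in edgeR). The 25% TE gate gave 45 higher genes, leaving out the deepest 10% of cells 41, phase matching 42 lower genes, and at least 2 UMIs and FOS alone 26 lower genes each. Leaving out each arm in turn gave 6 to 99 higher and 0 to 50 lower genes. The thinned, 5 UMI and EGR1 fits hold fewer counts by construction, and for the others the cause was not tested.

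IER2 turned to -0.19 when thinned. With EGR1 alone, AASS turned to 0.0021, AMOTL2 to -0.082, AURKA to -0.23, CCND1 to -0.15, DUSP4 to -0.0071, ID3 to -0.61, KRT18 to -0.58, KRT8 to -0.46, PHLDA1 to -0.16, SLC2A3 to -0.11, THY1 to -0.086 and TOP2A to -0.057. FOSB turned to -0.20 with DUSP5 alone, and in run 1 alone AURKA turned to -0.17 and CENPE to -0.13.

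The dose comparison inside high cells (281 and 217) gave 8 and 3 without run in the model and 21 and 18 by DESeq2. The dose ratio of the share in run 1 (1.48) became 0.930 with 3 UMIs after thinning, 1.10 with 1 UMI, 0.999 for FOS and 1.20 for DUSP5. That of run 2 (0.784) became 0.660 at 5 UMIs, 0.999 with 1 UMI after thinning, 0.645 for EGR1 and 1.17 for DUSP5. Depth limits who counts as a high cell, since 663 of 1340 sat at the threshold itself.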
